A study of Homo sapiens with 4 samples.

Results

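The genes described here are 132 well-expressed transcripts of Caco-2 cells that were sharply lower after 3 h with interferon gamma (IFNγ). They were chosen from 37515 genes by their own values. A gene had to reach 20 CPM (its count scaled to a fixed library total) in both unstimulated libraries, which 7605 genes did. Its log2 ratio of CPM + 0.5 at 3 h over CPM + 0.5 unstimulated also had to be -1.2 or less in 2 pairs of libraries, those numbered replicate 1 and those numbered replicate 2. These cutoffs were met by 137 genes, which is 1.80% of the 7605, and EFNA1, KDM3A, KLHL24, SESN3 and PIAS1 were then left out. Since the fall itself chose the genes, their ratios and fold changes are given below as a description, with no test. Just inside the cutoff were ENSG00000132142 (-1.202 and -1.56), POT1 (-1.206 and -1.91) and ZNF761 (-1.209 and -1.77), and just outside were NBEAL1 (-1.199 and -1.60), CPNE8 (-1.199 and -1.84) and ATAD1 (-1.196 and -1.28).

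Caco-2 cells come from a human colorectal carcinoma and form a polarized, enterocyte-like layer when left to differentiate on a filter. The cells were grown in transwells for 15 days, and IFNγ at 60 ng/ml was then added to the basal side. There were 2 libraries of unstimulated cells at 0 h and 2 libraries of cells after 3 h with IFNγ, all labelled WT and with no other treatment named. The 3 h cells were compared with 0 h cells, so the IFNγ and the elapsed 3 h cannot be told apart. Nothing in the labels says that the replicates were separate cultures, so the spread between them may be technical. The libraries held 7171455 to 10365346 counts, so that 1 CPM stood for 7.17 to 10.4 counts, and the lowest count of any of the 132 genes in an IFNγ library was 15. The labels were checked against marker genes. Of 11 tested genes known to be induced by IFNγ, 9 were called higher at 3 h by edgeR's quasi-likelihood test, with IRF1, a transcription factor of the interferon response, at 19.8 and 20.1 CPM unstimulated and at 1191 and 1056 CPM with IFNγ. The 16 enterocyte markers summed to 13087 to 15227 CPM per library, against 13.1 to 16.1 CPM for 12 leukocyte markers and 111 to 214 CPM for 9 fibroblast and endothelial markers. Most of the last sum was COL1A1, at 89.0 to 184 CPM.

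The amount of an mRNA is set by the balance of transcription and decay, and a large fall within a few hours requires that the mRNA already made is removed. Short half-lives are known for mRNAs of many transcription factors, cell cycle regulators and stress-response genes, and AU-rich elements in the 3′ untranslated region (UTR) are among the sequences that recruit the decay machinery. Measured in whole cells, less RNA per cell and fewer cells of one type cannot be told apart.

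The promoters of 5 of the genes that fell alike in both pairs are shown for the letters they hold. FAM13A and TMCC1 are among the deepest falls of this kind, and BHLHE40, CREBRF and MXI1 are transcriptional regulators whose promoters hold matches. These 3 were picked after the matches were seen, and where a gene has several annotated starts the promoter with the most matches is shown. The sequences are from RefSeq (GRCh38.p14) and run from 250 bases before to 50 bases after an annotated start, 5′ to 3′ on the strand of the gene. The positions are chr4:89057136-89057435 (minus strand) for FAM13A, chr3:129688683-129688982 (minus) for TMCC1, chr3:4979187-4979486 (plus) for BHLHE40, chr5:173056102-173056401 (plus) for CREBRF and chr10:110209981-110210280 (plus) for MXI1. Capitals mark ACGTG, the core of the hypoxia response element, and TAAACA, a core of forkhead factor sites, on either strand.
FAM13A: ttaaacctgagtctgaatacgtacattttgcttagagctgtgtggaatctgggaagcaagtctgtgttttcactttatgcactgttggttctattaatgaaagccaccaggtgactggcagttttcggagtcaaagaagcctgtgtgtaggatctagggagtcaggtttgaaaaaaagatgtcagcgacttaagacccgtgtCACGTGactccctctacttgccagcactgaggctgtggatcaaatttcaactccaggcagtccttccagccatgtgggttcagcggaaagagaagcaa
TMCC1: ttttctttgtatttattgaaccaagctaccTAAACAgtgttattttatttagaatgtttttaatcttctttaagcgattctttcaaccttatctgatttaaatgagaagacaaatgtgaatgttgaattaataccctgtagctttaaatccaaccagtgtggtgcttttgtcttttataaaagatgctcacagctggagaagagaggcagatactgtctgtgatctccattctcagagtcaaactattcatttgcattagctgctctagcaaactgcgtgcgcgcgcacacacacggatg
BHLHE40: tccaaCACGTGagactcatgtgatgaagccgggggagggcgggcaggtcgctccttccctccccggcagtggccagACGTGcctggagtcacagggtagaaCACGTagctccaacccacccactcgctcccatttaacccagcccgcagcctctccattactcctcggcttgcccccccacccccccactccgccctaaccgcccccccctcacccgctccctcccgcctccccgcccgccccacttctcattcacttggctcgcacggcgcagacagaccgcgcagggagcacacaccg
CREBRF: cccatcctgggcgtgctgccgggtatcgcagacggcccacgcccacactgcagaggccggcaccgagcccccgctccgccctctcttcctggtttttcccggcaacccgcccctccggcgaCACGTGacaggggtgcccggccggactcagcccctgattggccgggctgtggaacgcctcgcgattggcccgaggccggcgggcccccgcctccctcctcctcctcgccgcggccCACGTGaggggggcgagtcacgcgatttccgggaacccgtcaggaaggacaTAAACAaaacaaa
MXI1: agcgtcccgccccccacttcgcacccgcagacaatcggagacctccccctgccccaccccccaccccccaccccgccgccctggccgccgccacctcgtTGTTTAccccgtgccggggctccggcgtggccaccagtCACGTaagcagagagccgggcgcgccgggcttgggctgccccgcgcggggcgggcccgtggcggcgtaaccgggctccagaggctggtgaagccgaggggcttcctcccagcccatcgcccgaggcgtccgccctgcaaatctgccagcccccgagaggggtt

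The FAM13A and BHLHE40 windows hold the palindrome CACGTG, which reads ACGTG on both strands, and the CREBRF window holds 2 of them. A promoter was found for 106 of the 132 genes, 178 promoters in all, and both strands were searched. ACGTG was in a promoter of 33.0% of these genes and of 33.9% of the genes of 20 CPM or more. CACGTG, the E-box, was in 17% against 13.5%. TAAACA was in 24 genes, or 22.6%, against 10.1% of the genes of 20 CPM or more and 14.7% of all genes with a promoter in the table. Counted by promoter instead of by gene, the shares with TAAACA were 14.6%, 7.68% and 12.3%. The genes with TAAACA included FOXO3, FOXP1, MXD1, HBP1, TCF12 and SLC25A36 beside those printed. TATAAA was in 12.3% against 8.07%. A match of this kind is a string of letters and does not show that a factor binds there.

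The 3′ UTRs of the falling genes were rich in A and U. ATTTA, the pentamer at the heart of AU-rich elements, was found at a median of 3.21 per kb of 3′ UTR, against 1.80 per kb over all genes of 20 CPM or more. The longer element TTATTTAT was present in 42 of 130 annotated genes, or 32.3%, against 17.9%. Both values were lower in the genes still past the cutoffs after a GC and length trend was removed. That split itself depends on GC content and length, as given below. Windows of 30 bases around it are shown for 6 genes of several roles, read from GENCODE 44 transcripts on GRCh37, with T for U and the element in capitals. They lie at chr4:78091056-78091085 (plus strand) for CCNG2, chr6:131603365-131603394 (plus) for AKAP7, chr17:30552140-30552169 (plus) for RHOT1, chr5:172744106-172744135 (minus) for STC2, chr15:60783740-60783769 (minus) for RORA and chr12:93165939-93165968 (minus) for EEA1.
CCNG2: cagattgcttgTTATTTATggtcaaatggt
AKAP7: cagtgtgatctTTATTTATagtaaattatg
RHOT1: catggatcactTTATTTATttcacatttac
STC2: tttcactttttTTATTTATccagttatatc
RORA: cattcagtcatTTATTTATaaatgaatgac
EEA1: taaaacattatTTATTTATttatttattta

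The EEA1 3′ UTR holds the element 5 times, overlapping copies included, and the RORA 3′ UTR holds it 2 times. The genes that lay just outside the cutoff, 248 genes with both ratios at -0.9 or less, had nearly the same values as the falling genes, with 3.47 ATTTA per kb and the longer element in 35.1%. The 43 genes that rose by the mirror-image cutoffs, 0.565% of the 7605, had 1.46 ATTTA per kb and the longer element in 18.6%. The 3′ UTRs also differed in length, with a median of 2357 bases for the falling genes and 1458 bases for all genes of 20 CPM or more, so a gene had more room to hold the element. The values per kb were not adjusted for the GC content of the 3′ UTRs, a median of 34.6% against 42.0%.

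In each of the 132 genes both IFNγ libraries lay below both unstimulated libraries. Together these genes took 1.45% and 1.37% of all counts in the unstimulated libraries and 0.476% and 0.387% after 3 h. The median fall over both pairs was 3.04-fold, with a range from 2.36-fold to 11.4-fold. Both ratios were below -2 in 10 genes, and at least 1 was in 42 genes. edgeR called 130 of the 132 lower at an adjusted p-value under 0.05 and a log2 fold change below -1. The same call was made for 4.40% of all 14820 genes tested and for 5.02% of the 7605, and nothing is read from this, as the same contrast chose the genes. The 2 without a call were LUC7L3, a splicing factor, and ENSG00000259820, for which no symbol was found. LUC7L3 had 622 and 266 CPM unstimulated and 193 and 60.0 CPM with IFNγ, so that the replicate 1 library was far above the replicate 2 library in both conditions (log2 fold change -1.76 ± 0.54, SE).

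**Figure D1:**
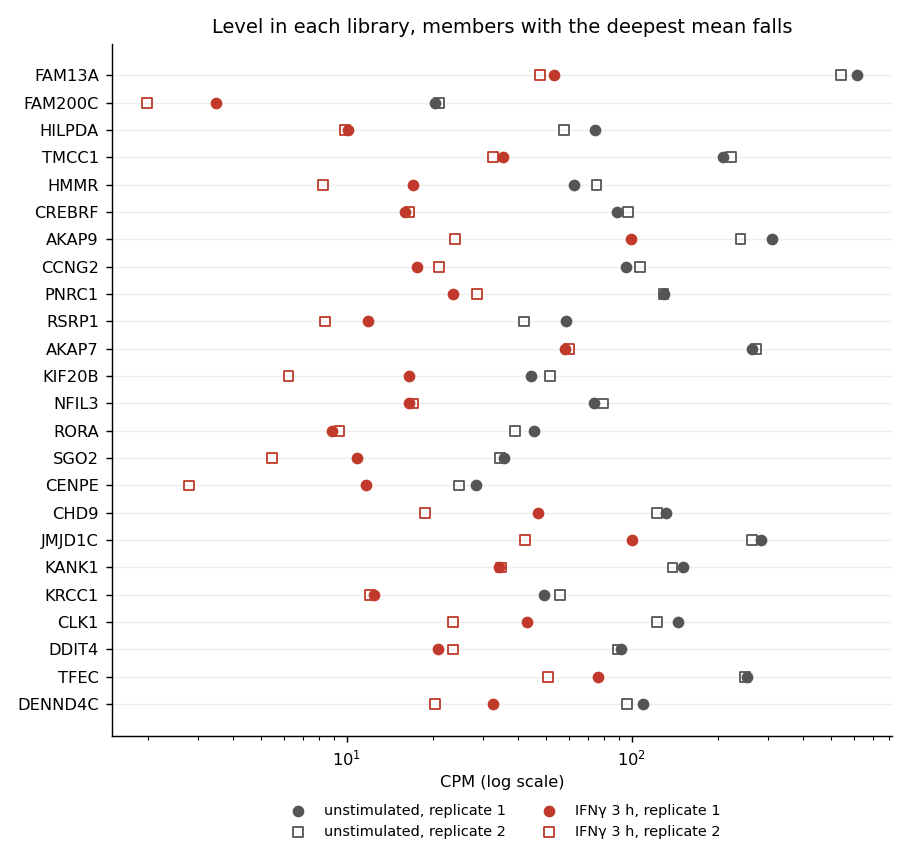
CPM in each of the 4 libraries (log scale) for 24 of the 25 falling genes with the deepest mean fall, grey for unstimulated and red for IFNγ 3 h, filled circles for replicate 1 and open squares for replicate 2. FAM13A stands at 616 and 543 CPM unstimulated and at 53.5 and 47.5 CPM with IFNγ, and in AKAP9, CENPE, KIF20B and HMMR the open red square lies far to the left of the filled red circle.

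FAM13A, whose locus is known for chronic lung disease, had the deepest fall of the 132 genes. It had 616 and 543 CPM in the unstimulated libraries and 53.5 and 47.5 CPM after 3 h, a log2 fold change of -3.48 ± 0.13 (SE, n = 2 per condition). The gene lies at chr4:89647106-90032549 on the minus strand of GRCh37, and its exons overlap another annotated gene. TMCC1, a membrane protein of the endoplasmic reticulum that takes part in endosome fission, had 208 and 223 CPM unstimulated and 35.3 and 32.7 CPM with IFNγ (log2 fold change -2.62 ± 0.13). HILPDA, which coats lipid droplets and blocks lipolysis, had 74.3 and 57.7 CPM unstimulated and 10.1 and 9.83 CPM with IFNγ (-2.68 ± 0.17). In these 3 genes the libraries of 1 condition differed little beside the gap between conditions.

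Transcription factors and cofactors made up 26 of the 132 genes, with a median of -1.67 for the mean of both ratios. The groups by role used here were drawn after the genes were known. CREBRF, a cofactor that restrains the CREB3 factor of the unfolded protein response, had 88.9 and 96.6 CPM unstimulated and 16.0 and 16.6 CPM with IFNγ (-2.47 ± 0.14). PNRC1, a nuclear receptor coactivator that also acts in mRNA decapping, went from 130 and 129 CPM to 23.6 and 28.6 CPM (-2.27 ± 0.14). NFIL3, a bZIP repressor of the clock and of immune cell development, went from 73.9 and 79.5 CPM to 16.5 and 17.1 CPM (-2.15 ± 0.14). The replicates of each condition lay close together in all 3 of these genes.

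A pair of factors that compete with MYC for its partner MAX were both among the 132 genes. MXI1 had 73.8 and 73.2 CPM unstimulated and 19.3 and 21.0 CPM with IFNγ (-1.83 ± 0.14). MXD1 had 107 and 94.5 CPM unstimulated and 26.9 and 28.8 CPM with IFNγ (-1.81 ± 0.13). Both encode proteins that repress the genes MYC activates. HBP1, an HMG-box repressor of cell cycle genes, had 57.3 and 62.2 CPM unstimulated and 19.3 and 17 CPM with IFNγ (-1.67 ± 0.15). FOXO3, a forkhead factor that is held inactive by growth factor signaling, had 92.1 and 92.0 CPM unstimulated and 32.3 and 25.4 CPM with IFNγ (-1.63 ± 0.15).

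The clock genes BHLHE40 and RORA were also in this group. BHLHE40, a repressor of CLOCK and BMAL1 target genes that is also induced by hypoxia, had 241 and 243 CPM unstimulated and 65.8 and 67.9 CPM with IFNγ (-1.81 ± 0.11). RORA, an orphan nuclear receptor that drives BMAL1, had 45.2 and 38.9 CPM unstimulated and 8.88 and 9.43 CPM with IFNγ (-2.16 ± 0.16). THRB, a thyroid hormone receptor, had 154 and 172 CPM unstimulated and 61.4 and 56.8 CPM with IFNγ (-1.42 ± 0.13). In none of these 3 genes did the 2 IFNγ libraries differ by as much as the conditions did. The ratios of 6 of the transcription factors, TFEC, ZNF292, RLF, ZBTB41, ZNF33B and ZNF761, were lower in the replicate 2 pair than in the replicate 1 pair by 0.5 or more. C2H2 zinc finger genes, by symbol, were 7 of the 132 genes or 5.30%, against 1.83% of the genes of 20 CPM or more. Of these 7, only ZNF608 was still past the cutoffs after a GC and length trend was removed, as described below. ZNF33B, ZNF761 and ZNF141 belong to families of near-identical genes among which reads can be split.

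Metabolism, transport and nutrient sensing accounted for 12 genes, described here after the cell cycle gene CCNG2. CCNG2, an unconventional cyclin that is raised when cells leave the cycle, had 95.7 and 107 CPM unstimulated and 17.7 and 21.1 CPM with IFNγ (-2.35 ± 0.16). DDIT4, an inhibitor of the growth kinase mTORC1 also known as REDD1, had 91.7 and 89.7 CPM unstimulated and 20.8 and 23.5 CPM with IFNγ (-1.99 ± 0.14). STC2, a secreted glycoprotein of the unfolded protein response, had 461 and 480 CPM unstimulated and 139 and 163 CPM with IFNγ (-1.60 ± 0.13). The 3 genes had little spread within each condition. PRKAB2, a regulatory subunit of the energy sensor AMPK, had 154 and 138 CPM unstimulated and 64.3 and 54.4 CPM with IFNγ (-1.25 ± 0.13). SLC25A36, a mitochondrial carrier of pyrimidine nucleotides, had 360 and 316 CPM unstimulated and 101 and 87.3 CPM with IFNγ (-1.80 ± 0.13). CFTR, the apical chloride and bicarbonate channel of epithelia, had 65.6 and 72.0 CPM unstimulated and 26.3 and 23.2 CPM with IFNγ (-1.43 ± 0.14).

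Lipid and sterol genes made up 7 of the 130 genes with a symbol. Beside HILPDA they were PNPLA3, a lipid droplet protein, NAPEPLD, which makes N-acylethanolamines, ACSL3, which activates fatty acids for lipid droplets, and IDI1, HSD17B7 and INSIG2 of the cholesterol pathway. INSIG2, which holds the sterol sensor SCAP in the endoplasmic reticulum, had 157 and 155 CPM unstimulated and 59.0 and 55.8 CPM with IFNγ (-1.4 ± 0.11). IDI1, an isomerase on the path to cholesterol, had 291 and 370 CPM unstimulated and 119 and 123 CPM with IFNγ (-1.41 ± 0.15). ACSL3 had 349 and 407 CPM unstimulated and 147 and 140 CPM with IFNγ (-1.36 ± 0.13). Reads of HSD17B7 can be shared with its pseudogene.

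Scaffolds and regulators of the cytoskeleton numbered 12, FAM13A included. AKAP7, an anchor that brings protein kinase A to membranes, had 264 and 273 CPM unstimulated and 58.2 and 60.0 CPM with IFNγ (-2.14 ± 0.12). KANK1, which links focal adhesions to cortical microtubules, had 151 and 139 CPM unstimulated and 34.2 and 34.7 CPM with IFNγ (-2.03 ± 0.12). AMOTL2, a scaffold that holds YAP at junctions and is itself a YAP target, had 623 and 561 CPM unstimulated and 176 and 216 CPM with IFNγ (-1.55 ± 0.14). NET1, a guanine nucleotide exchange factor, and FMNL2, JMY and DAAM1, which nucleate actin filaments, were members of this group too.

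RNA processing and decay genes numbered 15. They included CLK1, a kinase of SR splicing proteins, RSRP1, an arginine and serine rich protein, ZCCHC7, a part of the TRAMP complex, XRN1, the main cytoplasmic 5′ to 3′ exonuclease, and RNGTT, the mRNA capping enzyme. RSRP1 had 58.7 and 42.0 CPM unstimulated and 11.9 and 8.37 CPM with IFNγ (-2.26 ± 0.22). CLK1 had 146 and 123 CPM unstimulated and 42.9 and 23.6 CPM with IFNγ (-1.96 ± 0.25). The replicate 2 libraries were the lower ones of both genes in both conditions.

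Mitosis and cell cycle genes, 12 in number, had the deepest median mean ratio of the role groups (-1.96), and it was uneven between the pairs. Their median ratio was -1.38 for replicate 1 and -2.29 for replicate 2. HMMR, a microtubule-binding protein of the spindle, had 62.9 and 75.2 CPM unstimulated and 17.1 and 8.23 CPM with IFNγ (-2.38 ± 0.29). KIF20B, a kinesin of cytokinesis, had 44.2 and 51.5 CPM unstimulated and 16.5 and 6.24 CPM with IFNγ (-2.0 ± 0.36). CENPE, the kinesin that moves chromosomes to the spindle equator, had 28.3 and 24.8 CPM unstimulated and 11.7 and 2.79 CPM with IFNγ (-1.78 ± 0.47). In these 3 genes the unstimulated libraries lay close together and the replicate 2 library with IFNγ lay far below its partner. SGO2 and STAG2, which act in cohesion, the checkpoint kinase TTK, and DEPDC1 were also lower in the replicate 2 pair by 0.5 or more, while CCNG2, CIP2A, SPICE1 and NEK7 fell by like amounts in both pairs.

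The other groups held large nuclear and membrane proteins. JMJD1C, a histone demethylase family member, had 284 and 264 CPM unstimulated and 100.1 and 42.2 CPM with IFNγ (-1.90 ± 0.33), and CHD9, a chromatin remodeler, had 132 and 123 CPM and then 46.7 and 18.9 CPM (-1.90 ± 0.34). These and ATRX, ZMYM4 and ARID4A were the 5 of 12 chromatin genes whose ratio was lower in the replicate 2 pair by 0.5 or more. AKAP9, a very long scaffold of the Golgi and centrosome, had 310 and 241 CPM unstimulated and 99.7 and 23.9 CPM with IFNγ (-2.1 ± 0.52). Membrane traffic genes, 11 in number, included EEA1, a tether of early endosomes, VPS13C, a lipid transfer protein, TRIP11, a Golgi tether, and RB1CC1, a starter of autophagy. DNA replication, repair and telomere genes were WDHD1, POLK, POT1, TNKS, BRIP1 and BRCA1, with mean ratios from -1.90 to -1.30. Protein modification and turnover genes were CHORDC1, SENP7, USP53, ATE1, GID4 and ANKZF1, and surface or secreted proteins were MPZL2, MPZL3, SEMA3C and ACVR2B.

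Another 9 genes had a different role or none assigned. FAM200C, a gene of transposon origin with close relatives among which reads can be split, had 20.4 and 21.1 CPM unstimulated and 3.47 and 1.99 CPM with IFNγ (-2.84 ± 0.26). KRCC1, of unknown function, had 49.2 and 55.8 CPM unstimulated and 12.4 and 12.1 CPM with IFNγ (-2.05 ± 0.16). YPEL2, of a family of small zinc-binding proteins, had 27.3 and 25.9 CPM unstimulated and 7.04 and 8.23 CPM with IFNγ (-1.77 ± 0.18). The log2 ratios of FAM200C were -2.4 for replicate 1 and -3.11 for replicate 2. The others were APAF1, the core of the apoptosome, OXR1, FAM135A, TCP11L2, ENSG00000132142 and ENSG00000259820. The last 2 had no symbol in the sources used here, so they could not be placed and may belong to another group.

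**Figure D2:**
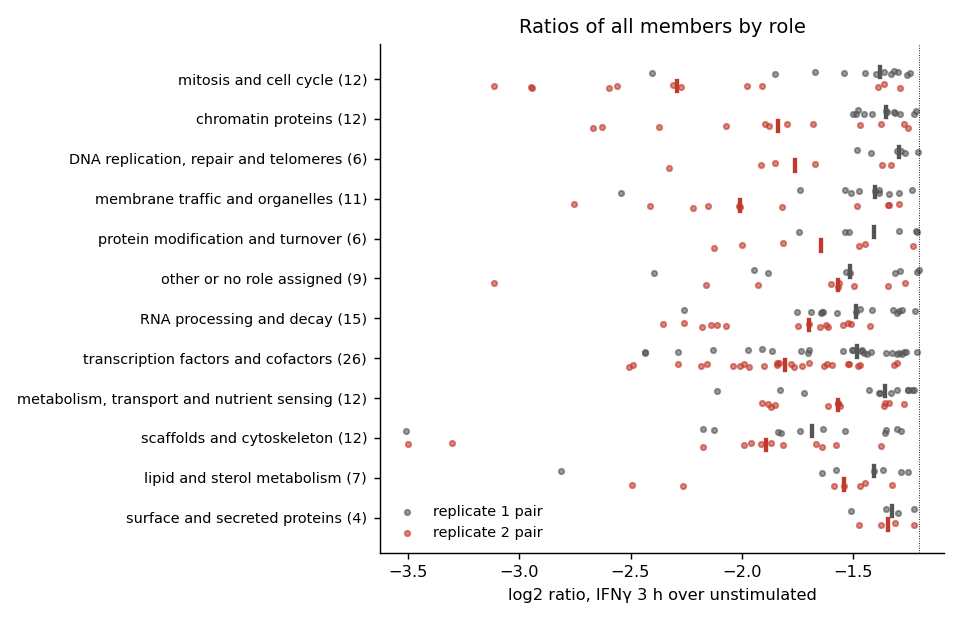
Log2 ratio of IFNγ 3 h over unstimulated for each of the 132 falling genes, by role, with grey points for the replicate 1 pair, red points for the replicate 2 pair, bars for medians and a dotted line at -1.2. The red bar lies furthest left of the grey bar for mitosis and cell cycle genes, at -2.29 against -1.38.

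The 2 pairs did not give the same picture of these genes. Of the genes of 20 CPM or more, 168 had a ratio of -1.2 or less for replicate 1 and 420 for replicate 2. The ratio was lower in the replicate 2 pair for 100 of the 132 genes, or 75.8%, against 52.7% of the genes of 20 CPM or more and 75.4% of the 248 genes just outside the cutoff. With bounds set after the values were seen, 76 of the 132 genes had ratios within 0.3 of each other and 42 were lower in the replicate 2 pair by 0.5 or more, or 31.8% against 5.47% of the genes of 20 CPM or more and 19% of those just outside. The unstimulated libraries differed little in this respect. The median log2 ratio of replicate 2 over replicate 1 in the 42 genes was -0.04 unstimulated and -0.79 with IFNγ, and in the 76 genes it was -0.04 and -0.08. The lower values were therefore in the replicate 2 library with IFNγ.

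**Figure D3:**
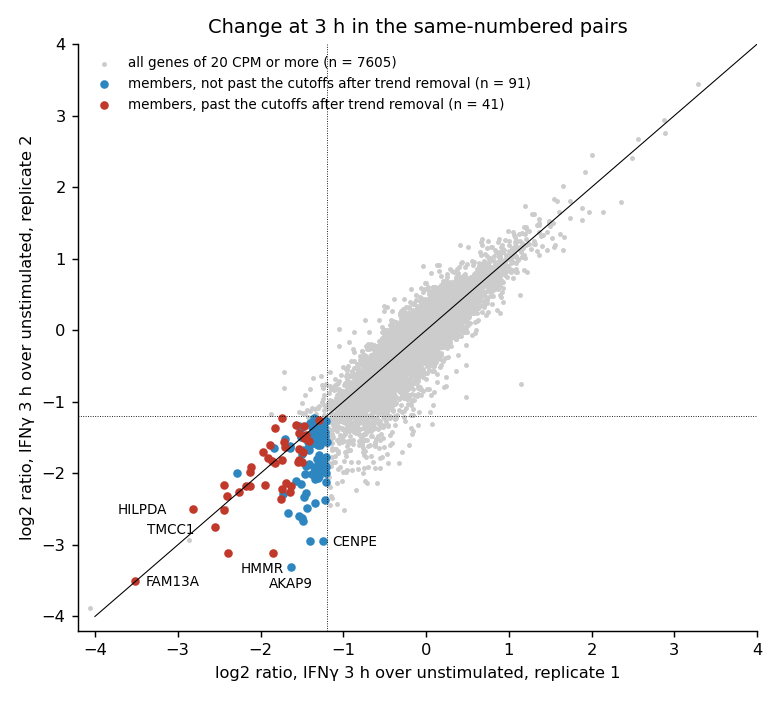
Log2 ratio of IFNγ 3 h over unstimulated for replicate 1 (horizontal) and for replicate 2 (vertical) for 7605 genes of 20 CPM or more, with the 132 falling genes in red (41, past the cutoffs also after a GC and length trend was removed) or blue (91, not past them, or without annotation and so not evaluated). Dotted lines are at -1.2 and the solid line marks equal ratios. FAM13A lies on the solid line, while CENPE, AKAP9 and HMMR lie far below it.

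How far the fitted fall depended on that library was read by leaving out 1 IFNγ library at a time, on the assumption that the lone library varies like the others. AKAP9 had a log2 fold change of -1.46 ± 0.19 without IFNγ replicate 2 and -3.48 ± 0.23 without IFNγ replicate 1. CENPE had -1.18 ± 0.24 and -3.20 ± 0.30, and KIF20B had -1.52 ± 0.22 and -2.89 ± 0.25. HMMR had -2.0 ± 0.22 and -3.02 ± 0.24. In these 4 genes the fitted fall was deeper with IFNγ replicate 2 as the only IFNγ library than with replicate 1. Over all 132 genes the median log2 fold change was -1.55, beside a median of -0.01 over all 14820 genes tested, and it was -1.44 without IFNγ replicate 2 and -1.77 without IFNγ replicate 1.

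The falling genes had long transcripts of low GC content. The median GC content of the longest annotated transcript was 40%, against 47.5% for all genes of 20 CPM or more, and 65 of the 130 annotated falling genes were below 40% GC, against 19.2% of all. The median length was 5635 bases against 4167 bases, and the median coding length was 2246 bases against 1499 bases. At the third codon position the GC content was 39.4% against 57.6%, and in 3′ UTRs it was 34.6% against 42.0%. The genes themselves spanned a median of 89.2 kb of the genome, against 36.0 kb. Genes just outside the cutoff had a median GC content of 39.6% and a median length of 6398 bases, so these features were shared with genes that fell less. The genes that rose had 51.2% GC and 3946 bases.

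**Figure D4:**
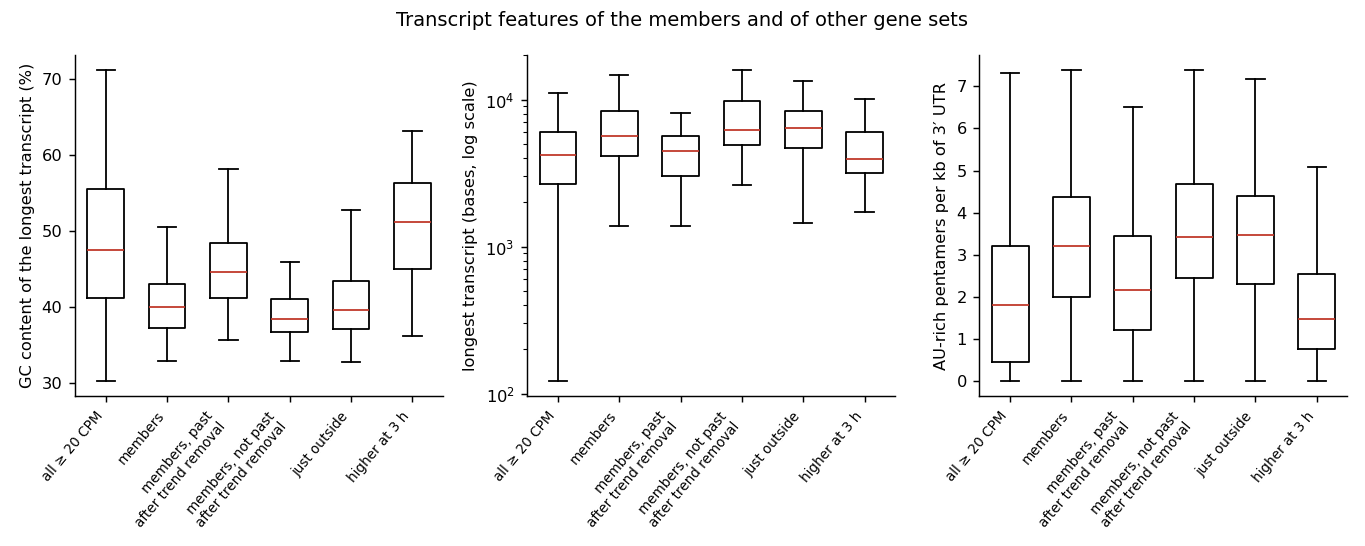
GC content (%), length (bases, log scale) and ATTTA pentamers per kb of 3′ UTR for 6 gene sets, with the median in red, the box from the lower to the upper quartile and whiskers to the furthest gene within 1.5 box heights, outliers not drawn. Median GC content is 40% for the falling genes and 47.5% for all genes of 20 CPM or more, and it is 44.6% for the falling genes past the cutoffs after trend removal and 38.5% for the others. The split after trend removal itself depends on GC content and length.

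These features moved with the difference between the pairs. The 76 genes with like ratios had a median GC content of 42.0% and a median coding length of 1790 bases, and the 42 uneven genes had 37.4% and 3729 bases. Across the 130 annotated genes, the difference between the pairs correlated with GC content (Pearson's r = 0.57, Spearman's ρ = 0.57), with GC content at the third codon position (ρ = 0.70) and with coding length (r = -0.57, ρ = -0.49). These genes share the same 4 libraries and are not independent, so no p-value is given. Over all annotated genes of 20 CPM or more, the ρ with the difference between the pairs was 0.36 for GC content. It was 0.39 for GC content at the third codon position and -0.10 for coding length (7332 to 7547 genes). GC content also ran with the ratios over these genes, with a ρ of 0.47 for replicate 1 and of 0.56 for replicate 2 (7547 genes). Among the falling genes, whose ratios the rule had bounded, this ρ was -0.32 for replicate 1 and 0.30 for replicate 2. The part of GC content and length in these falls was not tested.

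**Figure D5:**
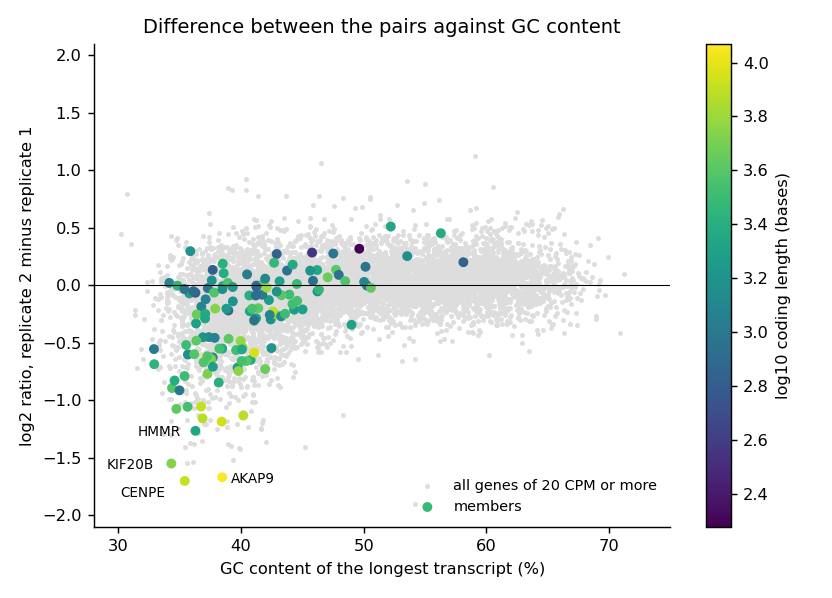
Difference of the log2 ratios, replicate 2 pair minus replicate 1 pair, against the GC content (%) of the longest transcript, in grey for genes of 20 CPM or more and colored by log10 coding length for the annotated falling genes. Among the falling genes, CENPE, AKAP9, KIF20B and HMMR, all under 40% GC, have the lowest differences, and those over 45% GC lie closer to 0.

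A trend on GC content and transcript length was therefore removed from each library and the same cutoffs were applied again. Of the 132 genes 41 were still past them. The other 91 were 89 that were not, and ENSG00000132142 and ENSG00000259820, which had no annotation and so could not be evaluated. Beside the 41, the kinase gene PIM1 and the noncoding MIR210HG, the host gene of a hypoxia-induced miRNA, came in. PIM1 had 66.5 and 65.1 CPM unstimulated and 26.5 and 30.4 CPM with IFNγ, and MIR210HG had 53.5 and 35.8 CPM and then 20.7 and 16.5 CPM. The 41 genes included FAM13A, TMCC1, HILPDA, CREBRF, CCNG2, PNRC1, AKAP7, NFIL3, KANK1, DDIT4, BHLHE40, MXI1, MXD1, STC2, AMOTL2, HBP1 and FOXO3. FAM13A kept ratios of -3.32 and -3.28, and CREBRF had -1.90 and -1.73. By role, 9 of 26 transcription factors and cofactors, 7 of 15 RNA processing genes and 6 of 12 scaffolds were among the 41, against 2 of 12 chromatin genes and 2 of 12 mitosis and cell cycle genes, which were CCNG2 and HMMR. RORA, with -1.68 and -1.13, INSIG2, with -1.0 and -0.86, and ACSL3, with -0.74 and -0.81, were no longer past the cutoffs. The TTATTTAT element was in 19.5% of the 41 genes and in 38.2% of the other 89 annotated genes, against 17.9% of all genes of 20 CPM or more. The median ATTTA per kb of 3′ UTR was 2.17 in the 41 and 3.43 in the others, against 1.80. The split itself used GC content and length, with medians of 44.6% and 4499 bases in the 41 against 38.5% and 6232 bases in the others. These contrasts in elements and roles can therefore follow from the split, and nothing is read from them. Any fall that ran with GC content or length would also be removed with the trend. Among genes with a promoter found, TAAACA was in 26.5% of the 41 and 20.8% of the others.

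The pathways that some of these genes are known for were then followed through lists of their other genes, written with earlier results of these data known. Of 40 tested genes known as targets of hypoxia-inducible factors (HIF), 11 were called lower, with a median log2 fold change of -0.40 (4.40% and -0.01 over all genes tested). Of these, 7 are among the 132 genes, namely DDIT4, FAM13A, HILPDA, INSIG2, MXI1, RORA and STC2, and the other 4 were ANKRD37, HK2, PDK1 and PFKFB3. The same contrast chose those 7, so nothing is read from 11 of 40 beside the share over all genes tested. HK2, a hexokinase of glycolysis, had 212 and 213 CPM unstimulated and 74.8 and 95.8 CPM with IFNγ. The HIF targets SLC2A1, ALDOC and P4HA2 had positive log2 fold changes between 0.13 and 0.42 that were not called, so the list did not move as one. Of 28 tested FOXO and growth factor withdrawal targets, 6 were called lower, among them CCNG2, PNRC1, YPEL2 and MXI1, and 2 were called higher, ARRDC4 and TRIB1. Of 18 clock genes, 4 were called lower, BHLHE40, RORA, NFIL3 and CIART, and PER2 was called higher. Among those called lower, 4 FOXO targets and 3 clock genes are also of the 132, so nothing is read from these counts either. With the trend removed, 10 HIF targets, 4 FOXO targets and 4 clock genes were called lower. PDK1, a kinase that restrains pyruvate oxidation, then went from a log2 fold change of -1.07 to -0.42 and INSIG2 from -1.4 to -0.90, both without a call, and PPFIA4 at -1.4 gained one.

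Other lists held at most 1 of the 132 genes. Of 19 YAP and TEAD targets AMOTL2 was called lower and 4 were called higher, among them ANKRD1 and CCN1. JMJD1C was called lower among 39 histone lysine demethylases and methyltransferases, and THRB, HNF4G and RARB among 32 nuclear receptors and coregulators, of which PPARGC1B was called higher. Higher calls were made for 2 of 16 TGFβ and BMP targets, 3 of 20 Wnt targets, 2 of 19 p53 targets, 5 of 23 MAP3 kinases and MAP kinase phosphatases, 6 of 17 Krüppel-like and SP factors and 3 of 34 homeobox and SOX factors, and 2.88% of all genes tested were called higher. Of the 16 enterocyte markers SI was called lower and CDX2 higher.

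In the genome, 7 pairs of the 132 genes lay within 500 kb of each other. MPZL2 and MPZL3, adhesion molecules of epithelia, lie 1.05 kb apart on chromosome 11. MPZL2 had 338 and 348 CPM unstimulated and 118 and 134 CPM with IFNγ, and MPZL3 had 146 and 155 CPM and then 59.4 and 62.2 CPM, so that both fell by like amounts. BRIP1 and INTS2 lie 1.81 kb apart on chromosome 17. CREBRF and STC2, both linked to the unfolded protein response, lie 175 kb apart on chromosome 5, and PNRC1 and RNGTT lie 117 kb apart on chromosome 6. All 130 annotated genes are protein-coding. Exons of 64 of them, or 49.2% against 51.3% of all genes of 20 CPM or more, overlap those of another annotated gene on either strand. How reads from these stretches were counted is not known, since the overlap and strand settings are not given in the sources used here.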

How the data were processed

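RNA-seq libraries were made with a TruSeq kit from total RNA of Caco-2 cells. The authors deposited whole-number read counts for each Ensembl gene and library; the submitters' processing notes name HISAT 0.5.1 and HTSeq 0.6.1p1, and the genome build, annotation and strand setting are not given in the sources used here. CPM was computed by column total, and log2 ratios with a pseudocount of 0.5 CPM. Differential expression was fitted on all counts with edgeR 4.0.16 (TMM scaling, default filter, quasi-likelihood test, Benjamini-Hochberg adjustment) in R 4.3.3. Each standard error is the size of the log2 fold change over the root of its F statistic. DESeq2 1.42.0 was an alternative, and the fits were tested on simulated data. Alternatives also covered scaling, filters, cutoffs, pseudocount, single libraries, the replicate number as a block, and a loess trend of GC content and length (span 0.3). Symbols, coordinates and transcripts came from GENCODE 44 on GRCh37, which matched 130 of 132 genes; promoters were RefSeq, GRCh38.p14. The rule allowed any member to be named. Values per library were given mainly for the 25 deepest falls, the 10 highest in unstimulated cells and members on the gene lists; a few results that the rule covers are not reported here. The members, the gene lists and the choices made here were set with earlier results of these data known. With 2 libraries per condition, precision is limited.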

Additional observations from a re-analysis of the deposited data

How the results depend on the processing

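The number of genes chosen, 132, was 271 at a ratio cutoff of -1, 64 at -1.4 and 43 with the GC and length trend removed, of which 41 were shared. It was 184 from the replicate 1 pair alone and 436 from the replicate 2 pair alone (cutoffs met in 1 pair; without replicate 2 and without replicate 1). It lay between 91 and 178 under TMM, DESeq2's size factors, a pseudocount of 2 and CPM minimums of 10 and 40. Their median log2 fold change, -1.55, was -1.17 with the trend removed, with or without the replicate block, and -1.77 to -1.44 when 1 library was left out. The count called lower, 130, was 127 with DESeq2, 88 with the trend removed, 92 with the trend removed and the replicate block, and 127 to 132 when 1 library was left out. The genes without annotation had no fit with the trend removed. The median GC content was 45.0% for the genes past the cutoffs after trend removal, against 40% over the 132 genes, and the trend removed was itself one of GC content and length.

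The replicate numbers were not used to pair libraries in the fit, as the labels do not say what they share. Deviations from the condition mean correlated between same-numbered libraries (r = 0.43 over 14820 genes), and with the replicate block 132 of the 132 genes were called lower, including both genes without a call otherwise, LUC7L3 (log2 fold change -1.86 ± 0.11) and ENSG00000259820. Over 40 genes refitted under each alternative, 438 values kept their direction, 9 lost their call and 6 gained one. The 6 were all LUC7L3, and the 9 were of ACSL3, INSIG2, AKAP9 and CENPE. AKAP9 and CENPE lost their calls with DESeq2 and without unstimulated replicate 1, and CENPE, ACSL3 and INSIG2 with the trend removed. The cause of these changes was not tested.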
